A study of Schizosaccharomyces pombe with 4 samples.

Results

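The genes ght1 to ght8 encode the 8 members of the hexose transporter family of the fission yeast *Schizosaccharomyces pombe*. They were taken by systematic identifier and are 8 of the 7022 transcripts in the table. Ght proteins sit in the plasma membrane and carry glucose, fructose or gluconate into the cell, the first step of sugar use. A yeast with many such transporters typically changes the set it makes with the supply of sugar, and in fission yeast glucose sensing acts through the cAMP pathway, AMP-activated kinase and TORC2. Ght5 is known as the main high-affinity glucose transporter, Ght1 and Ght2 transport glucose, Ght6 transports fructose as well as glucose, and Ght3 transports gluconate. Ght4, Ght7 and Ght8 are named as hexose transporters by sequence.

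RNA was measured by sequencing in 4 libraries, 2 from wild-type cultures and 2 from cultures that lack dbr1, the gene for the enzyme that opens the branched lariat of excised introns. The wild type was strain ED668. Both strains were h+ and carried ade6-M216, ura4-D18 and also leu1-32, so the mating type and the markers were shared. The dbr1Δ strain came from the Bioneer deletion collection, is a single strain, and grew slowly in the medium used, so slow growth and the missing enzyme cannot be told apart. All cultures were grown at 32 °C to an OD600 of 0.4 in YES, a rich medium whose sugar is glucose. Each culture was a separate biological replicate.

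The libraries held 19780858 to 36062720 counts over transcripts and introns. For the deleted gene itself, dbr1, the wild-type libraries held 1535 and 1799 counts and the dbr1Δ libraries 207 and 164. The marker ura4 had at most 1 count in any library. Of the pheromone genes, map2 of h+ cells had 137 and 139 counts in the wild-type libraries against 98 and 70 in the mutant, and the M-factor genes mfm1, mfm2 and mfm3 had at most 61 counts in any library. The pheromone receptor gene mam2 had 54 and 73 counts in the wild-type libraries against 287 and 237 in the mutant. It encodes the P-factor receptor of h- cells and was higher in dbr1Δ by a log2 fold change of 2.47 (adjusted p = 4.17e-06 from edgeR). The value for map2 was -0.32 (adjusted p = 0.222), and mfm2 and mfm3, at 0.12 and 0.23, did not pass either. How the mam2 value relates to the h+ label of both strains was not tested. The markers ade6 and leu1 differed by log2 fold changes of -0.05 and 0.09.

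In the reference genome (RefSeq, assembly ASM294v3) 4 of the 8 genes lie together on chromosome III. In the coordinates of the authors' table (Ensembl build EF1) that group runs from 204706 to 235289, a span of 30584 bases, in the order ght6 (SPCC1235.13), ght5 (SPCC1235.14), ght8 (SPCC548.06c) and ght1 (SPCC548.07c). Both ght6 and ght5 lie on the plus strand, and ght8 and ght1 on the minus strand. On chromosome II lie ght7 (SPBC1348.14c, 38514 to 40277, minus strand), ght4 (SPBC1683.08, 155751 to 159570, plus strand) and ght2 (SPBC4B4.08, 3427180 to 3429424, plus strand). The remaining gene, ght3 (SPAC1F8.01, 82746 to 84786, plus strand), is on chromosome I. The table lists 0 introns inside the 8 genes.

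The starts of the 8 coding sequences are shown to compare the members at that point. Each line gives the first 30 bases, read 5′ to 3′ from the reference genome, with the start codon in capitals. The lines of ght8, ght5 and ght6 are the same over their last 15 bases, where ght1 differs from ght8 at 4. Over all 30 bases ght1 differs from ght8 at 5. Over whole coding sequences ght1 is closer to ght8 than ght6 is, with 78.6% against 74.4% of aligned bases identical.
ght8, III:228371-228400, minus strand: ATGggtaagacattgaccattgtcatgttg
ght5, III:212313-212342, plus strand: ATGggaaaaaatttgaccattgtcatgttg
ght6, III:204733-204762, plus strand: ATGgcgaaaatcttaaccattgtcatgttg
ght1, III:234478-234507, minus strand: ATGagtaagacattgaccattacgatgctg
ght4, II:157555-157584, plus strand: ATGggaagaacacttacatctgtcctcgtg
ght3, I:82936-82965, plus strand: ATGaataggtttattacatcaattctcgtg
ght2, II:3427572-3427601, plus strand: ATGgggttcaagcgtggaaagaattttacc
ght7, II:40114-40143, minus strand: ATGcgcgattttcaatcacggttcgctgat

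Over whole coding sequences, ght5 and ght8 were identical at 92.2% of aligned bases, the highest value among the pairs, and ght3 and ght4 at 81.8%. The gene ght1 was identical to ght8 and to ght5 at 78.6% each. The lowest value, 61.9%, was that of ght3 and ght6. The longest stretch without a mismatch between ght5 and ght8 was 248 bases and is printed because no 49-base read from it can be assigned to a single gene. It covers bases 1007 to 1254 of both coding sequences, at III:213319-213566 on the plus strand for ght5 and at III:227147-227394 on the minus strand for ght8. Capitals mark the 182 bases that ght1 holds too.
ght5 and ght8: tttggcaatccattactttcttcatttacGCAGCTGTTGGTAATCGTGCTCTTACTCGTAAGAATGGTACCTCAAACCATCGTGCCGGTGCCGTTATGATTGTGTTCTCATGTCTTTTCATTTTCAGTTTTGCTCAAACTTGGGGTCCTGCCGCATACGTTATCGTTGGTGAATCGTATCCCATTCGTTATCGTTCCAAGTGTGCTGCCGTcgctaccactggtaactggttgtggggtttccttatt

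A second such stretch, of 240 bases, joins ght3 and ght4. It covers bases 856 to 1095 of both coding sequences, at I:83791-84030 and II:158410-158649, both on the plus strand, and is printed without capitals.
ght3 and ght4: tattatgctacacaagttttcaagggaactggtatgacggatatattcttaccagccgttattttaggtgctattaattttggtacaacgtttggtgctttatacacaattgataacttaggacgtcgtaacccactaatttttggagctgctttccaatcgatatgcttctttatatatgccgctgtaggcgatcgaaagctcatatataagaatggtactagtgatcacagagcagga

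The authors removed reads that matched several loci, so windows of this kind give no counts. Of the 49-base windows of each coding sequence, 38.5% of those in ght8 and 37.7% of those in ght5 have a second exact copy in the reference genome. For ght3 and ght4 the share was 13.2% each, for ght1 9.72% and for ght6 2.69%. The genes ght2 and ght7 had 0 such windows. With up to 3 mismatches, the limit used in the alignment, a copy elsewhere in the family was found for 61.1% of the ght8 windows and 58.4% of the ght5 windows, against 31 of the 1548 windows of ght2 and 0.861% of those of ght7. Over the whole gene of the reference annotation, exact copies made up 25.0% of the windows of ght8, 29.8% for ght5, 11.9% for ght3, 5.71% for ght4, 5.52% for ght1 and 2.17% for ght6. In that annotation ght3, ght5, ght6 and ght7 begin at the start codon. The ght8 gene has 2510 bases there, against 4211 in the interval where its reads were counted, so its share over that interval can differ. The levels of ght8 and ght5 are therefore uncertain, those of ght1, ght3, ght4 and ght6 to a smaller degree, and those of ght2 and ght7 least.

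**Figure D1:**
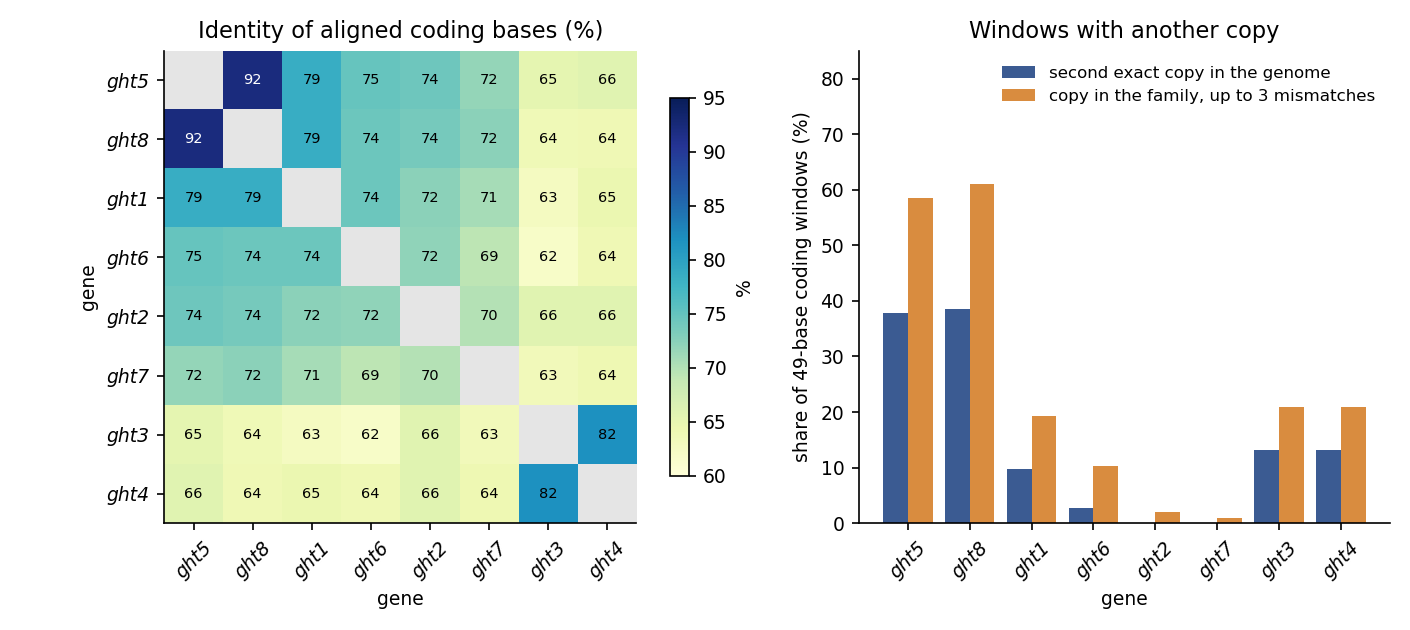
Left, percent identity of the aligned coding bases for each pair of genes. Right, the percent of 49-base coding windows of each gene with a second exact copy in the genome (blue) or a copy in another member with up to 3 mismatches (orange). The pair of ght5 and ght8 has the highest identity, 92.2%, and the most shared windows.

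The members differed widely in level. Levels between genes are given as the deposited RPKM, reads scaled to the annotated length and the library total. In wild type ght8 stood highest, at an RPKM of 102.0 and 104.2 in replicates 1 and 2, followed by ght2 at 60.2 and 72.9. Then came ght5 at an RPKM of 11.9 and 13.9 and ght4 at 6.25 and 5.23. The libraries of these 4 genes did not overlap, so each step of the order exceeded the spread between the 2 cultures.

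Low levels were found for the other 4 members. In wild type ght1 stood at an RPKM of 1.55 and 1.58, and ght3 at 0.984 and 1.59. These neighbours in the order overlapped. Below them were ght7 at an RPKM of 0.296 and 0.461 and ght6 at 0.220 and 0.153, which did not overlap. The gene of the high-affinity transporter, ght5, was thus the third in level here, at glucose-rich growth, with an RPKM of 12.9 ± 1.42 (SD, n = 2) against 103.1 ± 1.59 (SD, n = 2) for ght8.

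In dbr1Δ the order of the mean RPKM stayed ght8, ght2, ght5, ght4 and ght1, and the order below them changed. The RPKM of ght8 was 49.7 and 45.3 and that of ght2 was 50.7 and 42.4, so the leading genes overlapped. The gene ght5 followed at an RPKM of 19.3 and 15.9, ght4 at 3.93 and 3.72, and ght1 at 1.41 and 1.22. The RPKM of ght6 was 0.619 and 0.732 and that of ght3 was 0.692 and 0.598, which overlapped. The lowest was ght7, at an RPKM of 0.0471 and 0.0864. The interval of ght8 in the table is 4211 bases long against 2510 in the reference annotation, and RPKM divides by that length. Dividing the same scaled counts by the reference lengths put ght8 at 80.0 and 75.8 in dbr1Δ, without overlap with ght2, at 48.2 and 41.9. Those counts still come from the 4211-base interval, so this value of ght8 can be too high. Whether ght8 stood above ght2 in dbr1Δ was thus not settled.

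**Figure D2:**
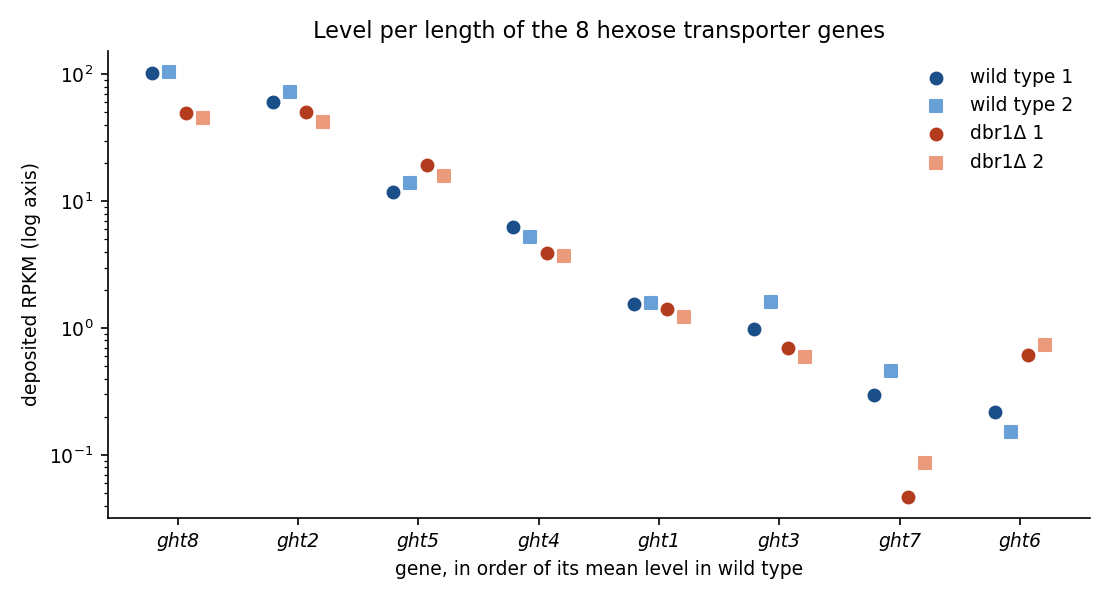
Deposited RPKM of the 8 genes on a log axis, one point per library, with wild type in blue and dbr1Δ in red. In wild type ght8 (102.0 and 104.2) lies above ght2 (60.2 and 72.9), and in dbr1Δ these genes overlap. The lowest gene is ght6 in wild type and ght7, with 2 and 3 counts, in dbr1Δ, where ght6 overlaps ght3.

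The comparison of the strains asked which members differed in dbr1Δ. All 8 genes passed the filter, 10 or more counts in 2 or more libraries, and were tested with edgeR's quasi-likelihood test among 6401 transcripts. A call required more than a 2-fold change and a p below 0.05 after Benjamini-Hochberg adjustment. Of the 8, 4 were called, namely ght3, ght7 and ght8, which were lower in dbr1Δ, and ght6, which was higher. Over all tested transcripts 9.5% were called, 6.69% higher and 2.81% lower. By adjusted p alone, 7 of 8 passed, ght2, ght3, ght4, ght7 and ght8 lower and ght5 and ght6 higher, against 60.4% of all tested transcripts, 17.8% higher and 42.6% lower. Passing by adjusted p alone was thus common in this table. The gene ght7 passed the filter only through its wild-type libraries, where it was higher, so its place in these counts carries no weight. An exact permutation of 2 cultures against 2 cannot give a two-sided p below 0.333, and the p-values use the spread that the model pools over all loci.

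The calls near 2-fold depended on the scaling. With the libraries scaled over transcripts and introns together, the median log2 fold change of all tested transcripts was -0.18. With scaling over transcripts alone that median was -0.01, a shift of 0.17. The median of the 8 genes was -0.59 with the joint scaling and -0.42 with scaling over transcripts. Scaling over transcripts called 2 of the 8, ght6 and ght7, against 9.78% of all transcripts, and at adjusted p alone 26.8% of all transcripts were higher and 27.5% lower. The direction of every member was the same under both scalings.

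**Figure D3:**
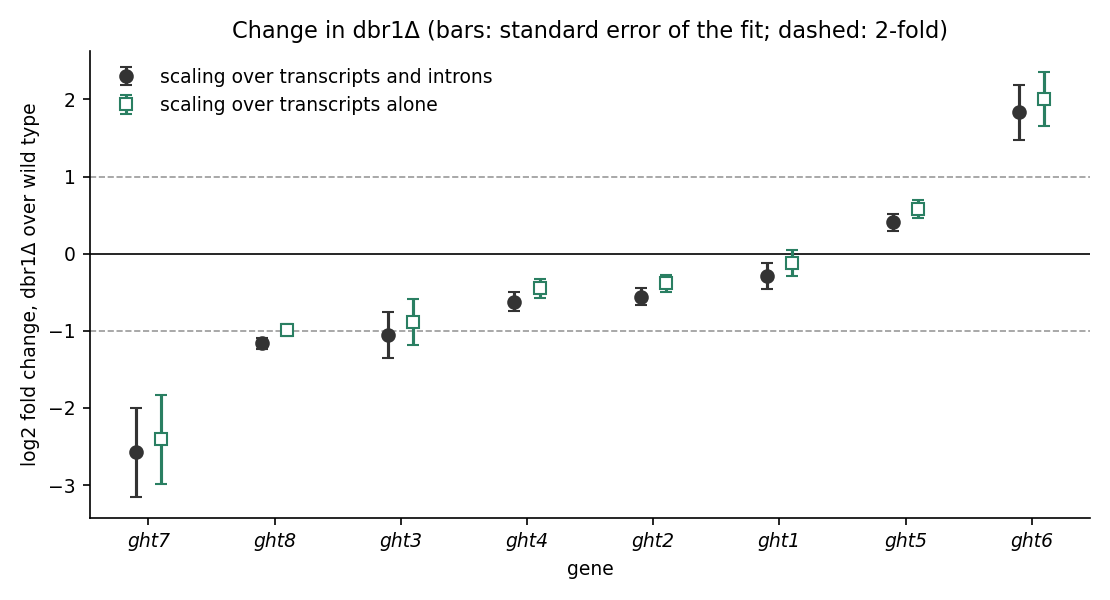
Log2 fold change of each gene, dbr1Δ over wild type, from edgeR, with scaling over transcripts and introns (filled circles) or over transcripts alone (open squares). Bars are standard errors of the fit and dashed lines mark 2-fold. Under both scalings ght5 and ght6 lie above 0 and the other 6 genes below, and ght8 moves from -1.16 to -0.99.

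The most abundant member, ght8, was lower in dbr1Δ. Wild-type replicates 1 and 2 held 10688 and 15668 of its reads, and the dbr1Δ replicates 5041 and 3751. Its normalized level, in CPM (counts relative to the scaled library total), was 432 and 442 in wild type and 201 and 190 in dbr1Δ. Both mutant cultures lay below both wild-type cultures. The strains did not overlap, in one direction or the other, for 82.2% of all tested transcripts. The log2 fold change was -1.16 (SE 0.07, adjusted p = 3.85e-06 from edgeR), or 2.24-fold lower. With scaling over transcripts it was -0.99 (SE 0.07, adjusted p = 1.21e-05), short of 2-fold. With any 1 of the 4 libraries left out, the log2 fold change of ght8 ran from -1.18 to -1.09.

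The glucose transporter gene ght5 moved the other way by a smaller amount. The counts were 654 and 1097 in the wild-type cultures against 1033 and 692 in the mutant ones. Its CPM was 26.4 and 31.0 in wild type and 41.1 and 35.1 in dbr1Δ, so both mutant cultures were higher. The log2 fold change was 0.41 (SE 0.11, adjusted p = 0.0143 from edgeR), under the 2-fold limit. The adjusted p was 0.106 without wild-type replicate 1 and 0.0646 without dbr1Δ replicate 1, so the call at adjusted p alone rested on both of these libraries. Reads shared by ght5 and ght8 were lost from both genes, and their part in the opposite changes was not tested.

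The other glucose transporter genes were lower or did not pass. For ght2 the wild-type libraries held 3361 and 5840 counts, and those of dbr1Δ 2744 and 1871. Its CPM was 136 and 165 in wild type and 109 and 94.8 in dbr1Δ, without overlap. This is a log2 fold change of -0.56 (SE 0.11, adjusted p = 0.00269 from edgeR). As given above, ght2 had 0 windows with an exact second copy.

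Counts of ght1 were 116 and 169 for wild type against 102 and 72 for dbr1Δ, a CPM of 4.68 and 4.77 against 4.06 and 3.65. Both mutant cultures were lower, but the log2 fold change of -0.29 (SE 0.17, adjusted p = 0.170 from edgeR) did not pass. At this depth the ratio of dbr1Δ to wild type over pooled counts was 0.819, with an exact 95% interval for counting error from 0.675 to 0.993.

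The fructose transporter gene ght6, the lowest in wild type, was the only member called higher. It had 11 counts in each wild-type library and 30 and 29 counts in dbr1Δ, or a CPM of 0.444 and 0.311 against 1.19 and 1.47. Both mutant cultures lay above both wild-type cultures, as did those of 27.1% of all tested transcripts. The log2 fold change was 1.83 (SE 0.36, adjusted p = 0.00256 from edgeR), or 3.56-fold higher, and 4.01-fold with scaling over transcripts. Pooled counts of 22 and 59 give a ratio of 3.60, with an exact 95% interval for counting error from 2.17 to 6.17. Even after this change its RPKM in dbr1Δ, 0.676 ± 0.0803 (SD, n = 2), was far below that of ght5, 17.6 ± 2.46 (SD, n = 2).

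The gluconate transporter gene ght3 was lower, but its wild-type cultures differed. Its reads numbered 50 and 116 in the wild-type libraries against 34 and 24 in the mutant, a CPM of 2.02 and 3.28 against 1.35 and 1.22. Wild-type replicate 2 stood apart from the other 3 libraries. The log2 fold change was -1.06 (SE 0.30, adjusted p = 0.0152 from edgeR). Without wild-type replicate 1 or 2 it was -1.34 and -0.63, and without dbr1Δ replicate 1 or 2 it was -1.10 and -0.96. With all libraries and scaling over transcripts it was -0.89 (SE 0.30, adjusted p = 0.0344 from edgeR). The values -0.63, -0.96 and -0.89 fall short of 2-fold, so the call of ght3 was not stable. Among the fits without 1 library, the size of its change depended most on the wild-type libraries.

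The paralogue of ght3, ght4, was counted 594 and 713 times in the wild-type libraries against 362 and 280 times in the mutant. The CPM was 24.0 and 20.1 in wild type and 14.4 and 14.2 in dbr1Δ, without overlap. The log2 fold change was -0.62 (SE 0.12, adjusted p = 0.00273 from edgeR), 1.54-fold lower. In the reference annotation the ght4 gene spans 3799 bases and its coding sequence begins at 157555, far inside the gene, so much of its count can come from the leader.

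The last member, ght7, had only 13 and 29 counts even in wild type, and 2 and 3 in the mutant. Its CPM was 0.525 and 0.819 in wild type and 0.0796 and 0.152 in dbr1Δ. Both mutant cultures lay below both wild-type cultures, as for 55.1% of all tested transcripts. The log2 fold change was -2.58 (SE 0.57, adjusted p = 0.00516 from edgeR). As ght7 passed the count filter only through its wild-type libraries, it could be tested only because it was higher there. Over pooled counts of 42 and 5 the wild-type level was 6.26 times that of dbr1Δ, with an exact 95% interval for counting error from 2.48 to 20.3. Without dbr1Δ replicate 1 the adjusted p was 0.0518, and without either wild-type replicate ght7 had too few counts to be tested.

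The composition of the family shifted with these changes. Summed over the 8 genes, the normalized level was 625 and 668 CPM in wild type and 372 and 341 CPM in dbr1Δ. Without ght8 the sums were 194 and 225 CPM in wild type and 171 and 151 CPM in dbr1Δ. Most of the difference in the sum thus lay in ght8.

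Of the summed RPKM of the 8 genes, ght8 made up 55.6% and 52.1% in wild type and 39.3% and 41.2% in dbr1Δ. The share of ght2 was 32.8% and 36.4% in wild type and 40.1% and 38.6% in dbr1Δ, and that of ght5 was 6.47% and 6.93% against 15.3% and 14.4%. The ratio of ght8 to ght5 in RPKM was 8.60 and 7.52 in wild type and 2.57 and 2.85 in dbr1Δ. The ratio of ght6 to ght7 was 0.742 and 0.333 in wild type and 13.2 and 8.48 in dbr1Δ. It rests on few counts, 11 of ght6 in each wild-type library and 2 and 3 of ght7 in dbr1Δ. As ght7 passed the filter only through its wild-type libraries, this ratio carries no weight. Such ratios within a library do not depend on how libraries are scaled, but they do depend on the length used for each gene. The strains did not overlap in any of these ratios. In CPM the strains did not overlap for 82.2% of all tested transcripts, and no such share was taken for ratios. With the reference gene lengths, an alternative chosen after seeing the data, the ratio of ght8 to ght5 was 13.4 and 11.7 in wild type and 4.01 and 4.46 in dbr1Δ. The share of ght8 was then 67.6% and 64.5% in wild type against 51.7% and 53.7% in dbr1Δ, so the strains still did not overlap. The counts of ght8 still came from its longer interval, so ght8 can be too high in these values. These are descriptions and were not tested.

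**Figure D4:**
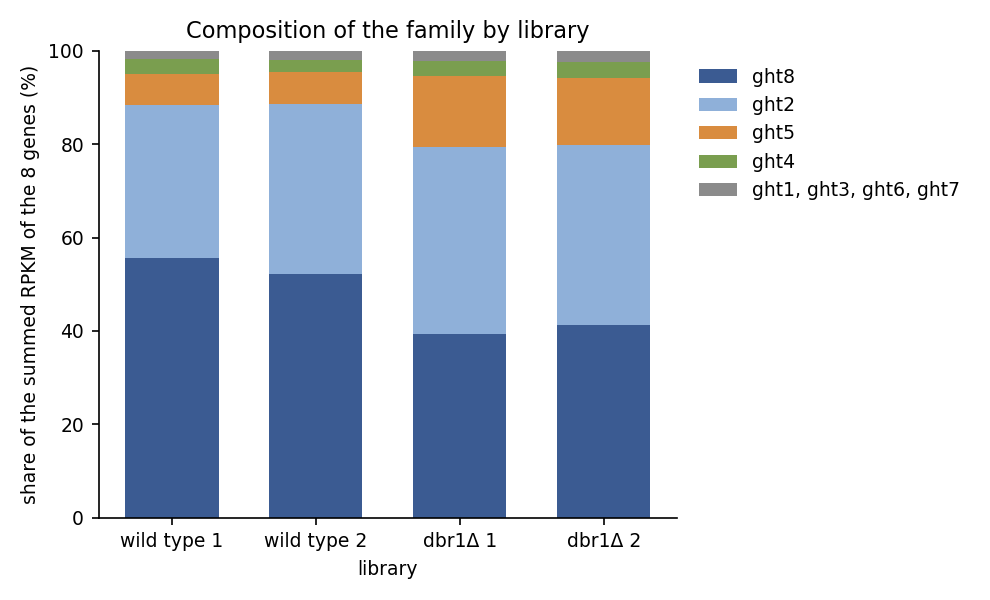
Stacked bars give the percent of the summed RPKM of the 8 genes held by ght8, ght2, ght5, ght4 and the other 4 genes together, for each library. The share of ght8 is 55.6% and 52.1% in wild type and 39.3% and 41.2% in dbr1Δ, and that of ght5 is larger in dbr1Δ.

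Annotated noncoding RNAs overlap ght1, ght4 and ght6. The libraries kept the strand of the RNA, but whether the counting used it is not given in the sources used here. The whole of ght6 lies within SPNCRNA.1118, on the opposite strand. The antisense RNA was counted 502 and 676 times in the wild-type libraries against 338 and 342 times in the mutant, a log2 fold change of -0.36 (SE 0.14, adjusted p = 0.0534 from edgeR), while ght6 itself had between 11 and 30 counts. Over this interval the antisense RNA was thus far more abundant than the mRNA, and of the pair the mRNA alone passed the test. Whether some of the few ght6 reads belong to the antisense RNA was not tested.

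The 5′ part of ght1, 825 bases or 27.5% of its interval, is overlapped by SPNCRNA.1121 on the opposite strand. Its counts were 11 and 24 for the wild-type libraries against 102 and 90 for the mutant, a log2 fold change of 2.89 (SE 0.26, adjusted p = 4.10e-05 from edgeR). The value of ght1 itself was -0.29 and did not pass. In CPM the antisense RNA was 0.444 and 0.678 in wild type and 4.06 and 4.56 in dbr1Δ. Per length, its RPKM in wild type was 0.196 and 0.298, below ght1 at 1.55 and 1.58. In dbr1Δ its RPKM was 1.88 and 2.03, above ght1 at 1.41 and 1.22.

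Within ght4 lie SPNCRNA.298 on the same strand and SPNCRNA.1319 on the other, and SPNCRNA.1318 overlaps its start antisense. SPNCRNA.298 had 92 and 97 counts in the wild-type libraries, 58 and 55 in the mutant, and shares its reads with ght4. SPNCRNA.1318 had 137 and 167 counts against 108 and 92, and SPNCRNA.1319 had 297 and 352 against 308 and 271. None of these 3 passed the test, with edgeR adjusted p from 0.166 to 0.370, while ght4 did. SPNCRNA.1319 passed with scaling over transcripts, at a log2 fold change of 0.42 (adjusted p = 0.0318).

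**Figure D5:**
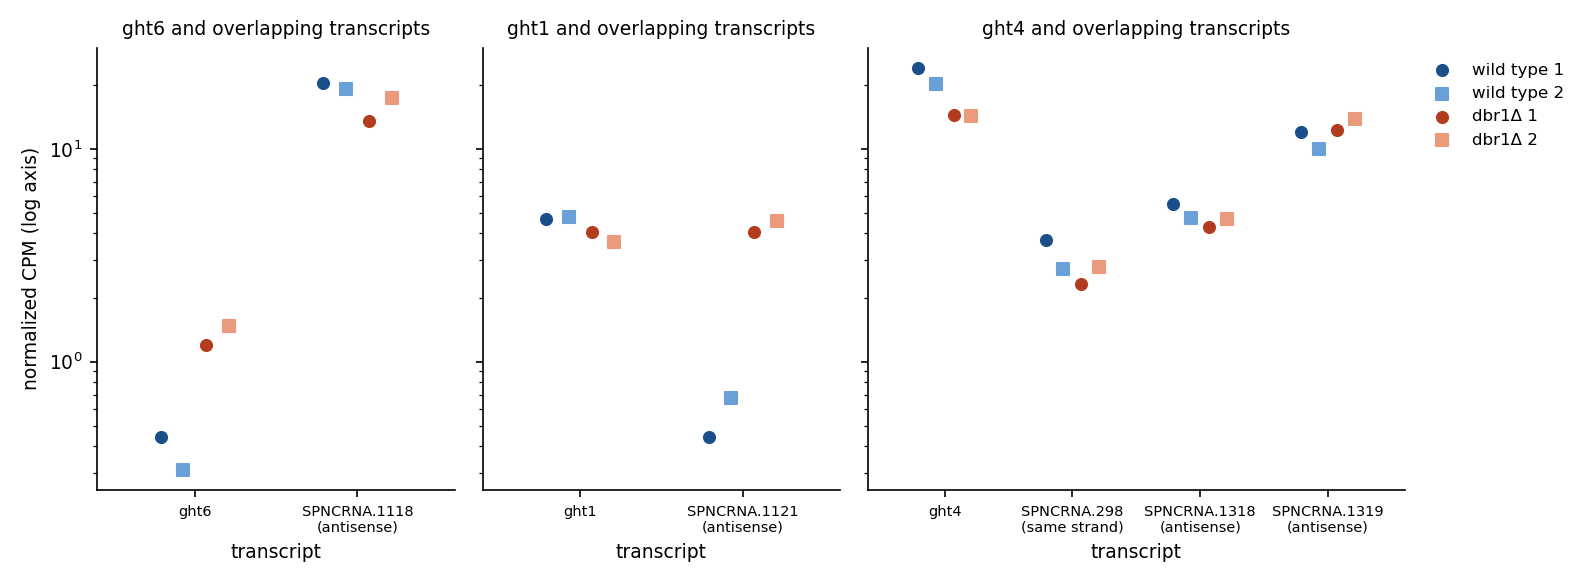
Normalized CPM on a log axis for ght6, ght1 and ght4 and the noncoding RNAs that overlap them, one point per library, wild type in blue and dbr1Δ in red. SPNCRNA.1118 lies far above ght6 in every library, and SPNCRNA.1121 goes from 0.444 and 0.678 CPM in wild type to 4.06 and 4.56 in dbr1Δ.

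The genes beside the members gave a mixed picture. Next to ght7, the coding genes SPBC1348.12 and SPBPB8B6.02c were lower in dbr1Δ like ght7, with log2 fold changes of -1.13 (SE 0.16, adjusted p = 0.000565 from edgeR) and -2.66 (SE 0.25, adjusted p = 5.10e-05). SPBPB8B6.02c had 111 and 135 counts in the wild-type libraries against 15 and 14 in the mutant. Scaled over transcripts alone, these values were -0.95, short of 2-fold, and -2.49. Being lower at adjusted p was common in this table, as given for the 8 genes. Beside ght2, usp102 and prp39, which encode splicing factors, had log2 fold changes of -0.65 and -0.80, and SPCC1529.01 beside ght1 had -0.73, all at an adjusted p under 0.05.

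Beside ght5, the diacylglycerol acyltransferase gene dga1 had a log2 fold change of 0.05 (adjusted p = 0.571), and SPCC1235.18 had 5 to 19 counts in a library. Beside ght6, mug146 had 15 to 46 counts, and SPCC1235.17 had a log2 fold change of -0.43 (adjusted p = 0.0260) against the 1.83 of ght6. Beside ght4, the maltase gene mal1 had 0.09 (adjusted p = 0.334). When scaled over transcripts, dga1 and mal1 passed as higher, at 0.22 (adjusted p = 0.0301 from edgeR) and 0.26 (adjusted p = 0.0170), and SPCC1235.17 did not pass, at -0.26 (adjusted p = 0.142). Beside ght8, SPNCRNA.460 and SPNCRNA.1120 had at most 7 counts in a library, the latter also lying beside ght1.

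Genes of iron uptake and haem uptake flank ght4 and ght3. The ferric reductase gene frp1, beside ght4, had 120 and 622 counts in the wild-type cultures against 297 and 118 in the mutant ones. The haem uptake gene shu1, beside ght3, had 4 and 17 counts in the wild-type cultures against 10 in both mutant ones. In CPM, frp1 was 4.85 and 17.6 in wild type and 11.8 and 5.98 in dbr1Δ, so wild-type replicate 2, the library with the high ght3 value, was also the highest for frp1. The CPM of shu1 was 0.162 and 0.480 against 0.398 and 0.507, and there wild-type replicate 1 was the low one. The part of that culture's state in the ght3 result was not tested. SPNCRNA.603, on the other side of ght3, had at most 6 counts.

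Genes that sense, take up or use sugars were counted from 6 lists, 51 genes in all, all of them tested. At an adjusted p under 0.05 from edgeR, 6 were higher and 24 lower, and 1 passed 2-fold. With scaling over transcripts 17 were higher and 11 lower, and 3 passed 2-fold (inv1, fbp1 and sut1), so for most of these genes the direction relative to the other transcripts was not settled. The shares over all transcripts are those given for the 8 genes.

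Of 14 genes of glucose sensing and cAMP signalling, 2 were higher and 7 lower, with a median log2 fold change of -0.30 against -0.18 over all transcripts. The gene for the glucose receptor, git3, stood at 96.6 and 97.2 CPM in wild type and 51.7 and 49.5 in dbr1Δ, a log2 fold change of -0.94 (SE 0.07, adjusted p = 1.02e-05 from edgeR). Its G protein alpha subunit, gpa2, had 144 and 134 CPM against 72.2 and 70.3, a log2 fold change of -0.96 (SE 0.07, adjusted p = 1.23e-05). Both passed with scaling over transcripts too, at -0.76 and -0.79. The C2-domain gene git1 and the corepressor gene tup12 had -0.36 and -0.37 with the joint scaling, and with scaling over transcripts git1 did not pass (adjusted p = 0.0911). With that scaling 4 of the 14 were higher and 3 lower. The 2 genes higher with the joint scaling were pka1 and cgs1, at 0.34 and 0.35 (adjusted p = 0.0135 and 0.0131 from edgeR). Both passed as higher with scaling over transcripts too, at 0.52 each.

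Of 11 genes of AMP-activated kinase, TORC2 and the calmodulin kinase kinase, 5 were lower and 0 higher at adjusted p, or 6 and 0 at an unadjusted p under 0.05, and DESeq2 gave 5 and 0. Their median was -0.18, as over all transcripts. The calmodulin kinase kinase gene ssp1 had a log2 fold change of -0.57, the AMP-activated kinase gamma subunit gene cbs2 -0.66, and the TORC2 genes tor1 and sin1 -0.45 and -0.50. These 4 passed with scaling over transcripts as well, at -0.40, -0.49, -0.28 and -0.32. With that scaling 4 of the 11 were higher and 5 lower.

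Of 8 genes for arrestins and ubiquitin ligases, which remove transporters from the membrane, 5 were lower and 0 higher (5 and 0 unadjusted, 3 and 0 with DESeq2), with a median of -0.24. The named members aly1, aly2, any1 and pub3 had log2 fold changes of -0.26, -0.37, -0.35 and -0.32. With scaling over transcripts only aly2 of these passed, at -0.19 (adjusted p = 0.0436 from edgeR), and of the 8 genes 1 was higher and 1 lower.

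Of 6 genes of hexose phosphorylation and upper glycolysis, 2 were lower and 0 higher (2 and 1 unadjusted, 2 and 0 with DESeq2), with a median of -0.05. Both were hexokinases, the enzymes that act on the sugar after uptake. Hexokinase hxk1 had 656 and 637 CPM in wild type and 498 and 520 in dbr1Δ, a log2 fold change of -0.34, and hxk2 had -0.37. Neither passed with scaling over transcripts (adjusted p = 0.0733 and 0.109), under which 3 of the 6 genes were higher and 0 lower (3 and 1 unadjusted).

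The list of genes repressed by glucose or serving other carbon sources held 9 genes, 3 higher and 4 lower, with a median of -0.17. The gene for invertase, inv1, which splits sucrose outside the cell, had 2.34 and 2.37 CPM in wild type and 8.36 and 7.71 in dbr1Δ. Its log2 fold change was 1.77 (SE 0.17, adjusted p = 4.72e-05 from edgeR), close to the 1.83 of ght6. The gluconeogenic fructose-1,6-bisphosphatase gene fbp1 had 7.27 and 5.90 CPM against 13.1 and 13.0, a log2 fold change of 0.996 (SE 0.15, adjusted p = 0.000630). With scaling over transcripts it was 1.17 (adjusted p = 0.000276), past 2-fold, and 4 of the 9 genes were higher and 2 lower.

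In the same list, the 2 enzymes that act on gluconate or its phosphate were lower, as were 42.6% of all tested transcripts. The gluconate transporter gene ght3 was lower too, but its highest library was wild-type replicate 2, and that of idn1 was wild-type replicate 1. Any link between these genes was not tested. Gluconokinase idn1 had 103 and 67.6 CPM in wild type and 43.4 and 63.5 in dbr1Δ, a log2 fold change of -0.68 (SE 0.22, adjusted p = 0.0267 from edgeR), and did not pass with scaling over transcripts (adjusted p = 0.0765). Phosphogluconate dehydrogenase gnd1 had 794 and 818 CPM against 420 and 525, a log2 fold change of -0.77 (SE 0.11, adjusted p = 0.000455), and is an enzyme of the pentose phosphate pathway rather than a gene of carbon source choice.

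Among 3 other sugar and polyol transporter genes, 1 was higher and 1 lower, with a median of -0.03. The gene sut1, for a transporter of maltose and sucrose, had 31.5 and 35.3 CPM in wild type and 69.1 and 63.8 in dbr1Δ, a log2 fold change of 0.99 (SE 0.09, adjusted p = 2.82e-05 from edgeR). Scaling over transcripts gave 1.16 (adjusted p = 1.19e-05), past 2-fold. The inositol transporter gene itr2 had -0.22 (adjusted p = 0.0287), and -0.05 with scaling over transcripts (adjusted p = 0.589), so that 1 of the 3 was higher and 0 lower (1 and 0 unadjusted).

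For the 4 called members the coding transcripts with the most similar pattern were sought among 4854 with a mean of at least 50 counts. The measure was the root mean square difference over the 4 libraries in log2(CPM + 0.5) from the wild-type mean. The closest to ght8 were nhe1, tae1 and cgr1, at 0.0281, 0.0382 and 0.0394. The closest to ght3 were tip41, SPAC9.06c and snp27, at 0.0754, 0.0755 and 0.0830. For ght6 they were SPAPB24D3.07c, SPAPB24D3.08c and SPAC23H4.05c, at 0.0208, 0.0415 and 0.0479, and for ght7 SPBC887.17, trm112 and rps1401, at 0.0682, 0.0694 and 0.0807. The added 0.5 shrinks the changes of ght6 and ght7, which lie near that level, so their matches have smaller fold changes than they do. With 4 libraries and 1 contrast, such likeness mostly restates the fold change.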

How the data were processed

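RNA was sequenced from 4 µg of total RNA per culture, depleted of rRNA and fragmented to about 200 nt, in strand-specific libraries with 15 PCR cycles. The authors aligned reads of 49 bases with Bowtie (up to 3 mismatches) to build EF1 and to exon junctions and dropped reads with several matches. The counts deposited by the authors are raw reads per transcript or intron and library, with exon-intron boundary reads counted apart. Levels were deposited as log2(RPKM + 1e-05) and were converted back to RPKM. Splicing efficiency was also deposited on a log2 scale and does not apply to genes without introns. The columns of the authors' own comparison, fold changes, adjusted p-values and q-values, were not used. There were 0 columns without a sample.

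For introns, body and boundary reads were added. Loci with 10 or more counts in 2 or more libraries, 6401 transcripts and 3117 introns, entered a single edgeR 4.0.16 fit (quasi-likelihood, TMM over all loci) in R 4.3.3, with Benjamini-Hochberg adjustment over all 9518. A call needed more than a 2-fold change and a p below 0.05 after adjustment. Fold changes are dbr1Δ over wild type, and normalized CPM uses the same TMM factors. Replicates 1 and 2 of a strain are separate cultures. The named genes were all members, every transcript overlapping or next to one, the 3 nearest patterns of each called member, the genes of each list, up to 4, that changed most among those passing, dbr1 and the strain and mating-type markers. Also named were pka1 and cgs1, the 2 higher genes of the cAMP list. Members and lists were chosen with earlier results of these data known. Alignment of coding sequences used Biopython 1.88, and intervals SciPy 1.17.1. Intervals cover counting error only. Sequences came from RefSeq ASM294v3, in which the identifiers of 6867 of 7022 transcripts were found. Proteins and promoters were not used here. The fit was tested on simulated data. The alternatives were DESeq2 1.42.0, other scalings, separate fits, other count filters, no fold cutoff, a replicate block, leaving out each library, other units or lengths for levels and shares, and windows with mismatches.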

Additional observations from a re-analysis of the deposited data

How the results depend on the processing

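No log2 fold change of a member changed sign under any of the alternatives, and over them ght8 ranged from -1.19 to -0.93, ght2 from -0.70 to -0.33, ght5 from 0.30 to 0.64, ght4 from -0.74 to -0.39, ght1 from -0.33 to -0.06, ght3 from -1.34 to -0.63, ght6 from 1.57 to 2.07 and ght7 from -3.01 to -2.10. The 4 called members became 2 (ght6 and ght7) with scaling over transcripts, scaling over nuclear coding transcripts, or transcripts fitted apart from introns, 1 (ght8) with a minimum mean of 50 counts, where ght6 and ght7 were not tested, and 7 without the fold cutoff, which also moved the calls over all transcripts from 608 to 3866. DESeq2, size factors by RLE, library totals and no filter gave the same 4. Leaving out 1 library gave 2 to 3 called members and 4 to 6 at adjusted p alone, and ght6 and ght8 were called each time. Across these the log2 fold change of ght3 ran from -1.34 to -0.63 (adjusted p up to 0.128), of ght5 from 0.30 to 0.55 (up to 0.106) and of ght7 from -3.01 to -2.10 (up to 0.0518), and ght7 could not be tested without either wild-type library. Same-numbered libraries deviated from their strain means with a correlation of -0.0381 over 9518 loci. This gave no sign that the numbers 1 and 2 pair the cultures, but cannot show that they do not. A replicate block on these numbers gave 4 called members, the same genes, and 610 called transcripts. Of the 51 listed sugar genes, 30 passed at adjusted p alone, where 60.4% of all tested transcripts passed. Under the alternatives that kept all 4 libraries, 25 to 32 of them passed. Reference gene lengths, applied to the same counts and chosen after seeing the data, kept the wild-type order of levels. By counts in place of RPKM, ght8 held 67.6% of the wild-type family total against 53.9%. Depth limits ght6 and ght7 most, with at most 30 counts in a library.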
